A study of Homo sapiens with 18 samples.

Results

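The regions described here are the subtelomeres of the human autosomes, taken as the first and the last 2 Mb of chromosomes 1 to 22 in the hg19 assembly, without the short arms of the acrocentric chromosomes 13, 14, 15, 21 and 22. They were cut into 10-kb windows counted from the chromosome end, and a window was kept where at least 50% of its bases are known. Of 7800 such windows 7517 were kept, in 39 arms with 174 to 199 windows each, which is 2.8% of the 268444 autosomal windows that pass the same filter. The remaining 260927 windows, called elsewhere below, served for comparison. The windows were chosen by position alone, with no use of the peak data.

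The cells were HL-60/S4, an established human myeloid leukemia line that grows in suspension, undifferentiated and given no treatment. The H1.2 and H1.5 variants of the linker histone were mapped after a single formaldehyde fixation and sonication (xChIP-seq), or with the antibody bound to fixed permeabilized cells and held there by another fixation before sonication (xxChIP-seq), with 3 replicates of each of 4 combinations and 6 Input samples that are not used here. The values are the start and end of each peak in 4 deposited lists, in which the peaks of the 3 replicates are merged, so that there is no spread between replicates, no read number and no depth, and no test was made. Antibody access, fixation and the later steps change together between the protocols and cannot be told apart here.

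Human chromosome ends carry arrays of the telomere repeat, followed inward by blocks of sequence that several chromosome ends share, and then by mostly single-copy, often gene-rich sequence. Linker histone H1 binds nucleosomes near the entry and exit of the DNA and helps to fold chromatin, and H1.2 and H1.5 are somatic variants of it. Some subtelomeres hold gene families that expanded by duplication, among them olfactory receptors, and the DUX4 gene lies inside a tandem repeat, D4Z4, near the ends of 4q and 10q.

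As examples of the sequence under these peaks, 120 bases are given from the longest subtelomeric peak of 3 of the lists, from the plus strand of hg19 with CG dinucleotides in capitals. The xChIP H1.2 stretch, chr1:1709608-1709727, lies in an intron of NADK, an NAD kinase gene. The xxChIP H1.2 stretch, chr4:190581976-190582095, lies in an intron of the noncoding gene LINC01262, and the xxChIP H1.5 stretch, chr4:190609809-190609928, lies between genes. The middle of a peak was used, moved by 132 bases for xChIP H1.2 and by 181 bases for xxChIP H1.2 to leave annotated exons.
1p, xChIP H1.2: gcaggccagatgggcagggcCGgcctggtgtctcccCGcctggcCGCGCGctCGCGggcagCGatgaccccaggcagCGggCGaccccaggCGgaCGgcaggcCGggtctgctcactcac
4q, xxChIP H1.2: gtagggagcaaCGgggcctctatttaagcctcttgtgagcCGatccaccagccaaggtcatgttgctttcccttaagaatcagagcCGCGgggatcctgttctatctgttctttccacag
4q, xxChIP H1.5: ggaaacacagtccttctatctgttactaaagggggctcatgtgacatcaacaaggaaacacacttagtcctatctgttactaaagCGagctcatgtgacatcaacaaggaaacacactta
These stretches hold 13, 4 and 1 CG, in this order, while 120-base stretches of the autosomes hold 1.19 on average and 56.2% of them hold at least 1. Their GC content is 77.5%, 52.5% and 41.7%, while the whole peaks have 51.3%, 42.3% and 42%, so the first 2 stretches are richer in GC than their peaks.

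From the D4Z4 arrays the middle of a gene model is given, at 4q that of the pseudogene DUX4L4, chr4:191002847-191002966, and at 10q that of DUX4L12, chr10:135487848-135487967, because the arrays show a one-sided peak pattern, described with the gene families. CG is again in capitals.
4q, DUX4L4: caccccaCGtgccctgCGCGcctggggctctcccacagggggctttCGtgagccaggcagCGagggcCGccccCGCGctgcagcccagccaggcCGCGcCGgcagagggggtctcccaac
10q, DUX4L12: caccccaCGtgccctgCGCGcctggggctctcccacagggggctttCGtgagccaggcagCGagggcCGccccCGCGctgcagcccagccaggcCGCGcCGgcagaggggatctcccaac
Each stretch holds 11 CG, and they differ at 1 of 120 bases. This pair was chosen after the peak values were seen.

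Subtelomeric windows were richer in G and C than the rest of the autosomes, with a mean GC content of 48.9% against 40.8% and 21.5 against 9.63 CpG per 1000 bp. They held 1244 protein-coding gene starts, 16.6 per Mb against 6.89 elsewhere. Sequence that occurs only once was rarer, since 88.95% of sampled 50-mers were unique against 92.5% elsewhere. Peak coverage changes with GC content in 3 of the lists. The main values of window coverage are therefore set beside windows elsewhere, reweighted to the same GC content in steps of 1 percentage point. Peak lengths, shared bases, promoters and genes were not matched on GC.

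The lists differed in how much of the subtelomeres they covered. xChIP H1.2 peaks covered 40.9% of the known subtelomeric bases, against 26.6% elsewhere and 39.4% in GC-matched windows. xChIP H1.5 peaks covered 17.6%, against 16.6% elsewhere and 15.9% in matched windows. xxChIP H1.2 peaks covered 13.9%, below the 20.7% elsewhere and above the 11.6% of matched windows. For xxChIP H1.5 the values were 13.8%, 17.6% and 11.1%. Against the rest of the autosomes the subtelomeres thus held more xChIP H1.2 and less of both xxChIP lists, and after matching on GC all 4 lists lay slightly above.

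The excess over GC-matched windows was 1.52 percentage points in the H1.2 list of xChIP (SD 14.8 over 39 arms) and 1.77 points in its H1.5 list (SD 6.402). In xxChIP it was 2.33 points with H1.2 (SD 4.598) and 2.65 points with H1.5 (SD 5.93). Just inward, from 2 to 5 Mb off the end, the xxChIP excess was nearly as large, 2.28 and 2.195 points, while the xChIP lists lay below their match there, at -2.98 and -1.25 points. Every one of the subtelomeric values is smaller than the spread between arms. Coverage was above the matched value in 20, 21, 25 and 26 of the 39 arms, in the same order. The xChIP H1.2 excess turned to -1.17 points with windows of 50 kb and to -1.04 points with 5 Mb per arm, and without chromosome 3, 6 or 17 it was 0.885, 2.34 or 0.643 points. The xChIP H1.5 excess was -0.0760 points with 5 Mb per arm. With matching on unique 50-mers as well, chosen after seeing the data, the excess was 0.187 points for xChIP H1.2 and 0.749 points with H1.5.

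By GC content the subtelomeres departed from the rest in opposite places. xChIP H1.2 coverage rose with GC up to the class of 54% to 58% in the subtelomeres, where it was 55.6% against 47.0% elsewhere, and up to 50% to 54% elsewhere, where it was 48.97%. In windows of at least 58% GC it was lower, 51.8% against 43.0%. Between 46% and 50% GC it was lower in the subtelomeres, 40.6% against 44.8%. The xxChIP lists went down with GC and exceeded the rest at the low end: below 38% GC xxChIP H1.5 covered 30.4% of subtelomeric bases against 23.8% elsewhere, and xxChIP H1.2 covered 32.1% against 29.3%. At 42% to 46% GC the values were 17.1% against 12.8% for xxChIP H1.5 and 19.5% against 14.6% for xxChIP H1.2. xChIP H1.5 varied little, from 13.5% to 19.7% over the GC classes of the subtelomeres.

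**Figure D1:**
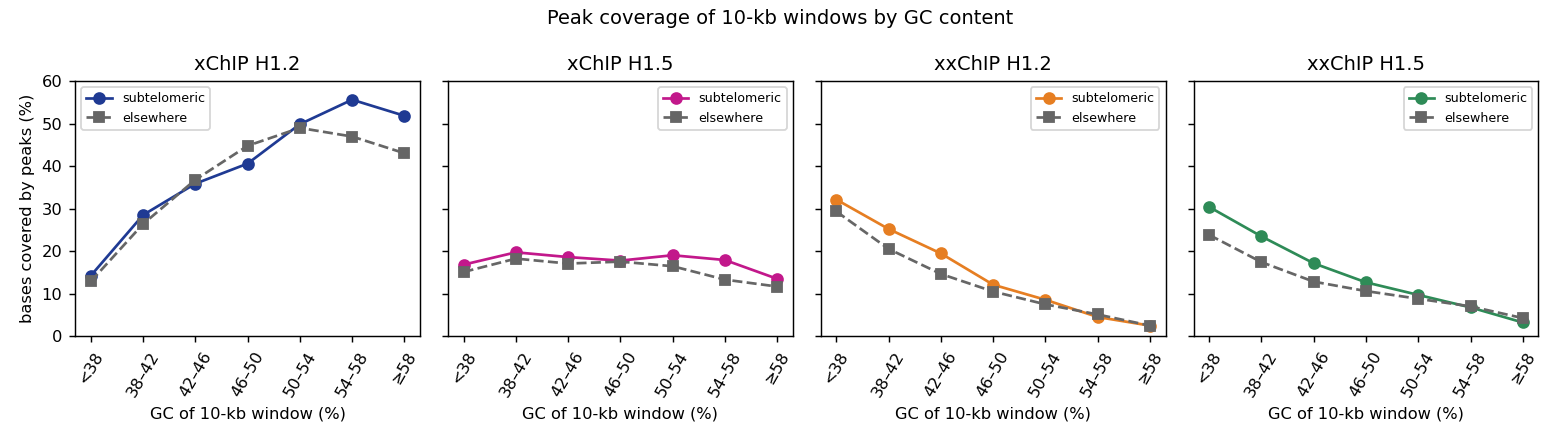
Share of bases covered by the peaks of each list (vertical axis, %) in 10-kb windows of 7 GC classes (horizontal axis, %), for subtelomeric windows (coloured circles) and windows elsewhere on the autosomes (grey squares). xChIP H1.2 in the subtelomeres reaches 55.6% at 54% to 58% GC, while both xxChIP lists are highest below 38% GC.

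Windows mostly inside genes and windows mostly outside them also differed. In the 4137 subtelomeric windows with at least 50% of their bases inside protein-coding genes, xChIP H1.2 covered 44.6% against 40.9% in windows elsewhere matched on GC and gene share. In the other 3380 windows it covered 36.3% against 36.9%. The xxChIP lists had their larger excess outside genes, 3.83 points with H1.2 and 4.27 points with H1.5, against 0.932 and 1.15 points inside genes.

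For xChIP H1.5 the distance to the chromosome end changed the picture mainly in the outermost bins, while the other lists also changed farther inward. Within 100 kb of the end, 244 windows in 38 arms passed the filter (4q has none there). xChIP H1.5 covered 25.7% of their bases against 16.7% in GC-matched windows, an excess of 8.97 points (SD 18.3 over arms) that was above 0 in 25 of 38 arms. xxChIP H1.2 lay 3.89 points above (SD 12.65, above 0 in 20 of 38 arms) and xxChIP H1.5 3.69 points (SD 10.58, 22 of 38 arms). xChIP H1.2 covered 33.5% against 35.0%, a difference of -1.52 points (SD 17.74, above 0 in 17 of 38 arms). Without chromosome 17 this difference was 0.188 points. From 100 to 250 kb the xChIP H1.5 excess was 3.09 points, and from 250 kb on it was between 1.203 and 1.54 points. xChIP H1.2 was highest from 500 to 1000 kb, with 44.2% against 40.7%. Its difference was -1.58, 2.27, 3.54 and 0.984 points from 100 to 250, 250 to 500, 500 to 1000 and 1000 to 2000 kb. In the same bins the excess was 3.20, 0.978, 1.42 and 2.88 points for xxChIP H1.2. For xxChIP H1.5 it was 1.04, 1.81, 2.35 and 3.17 points.

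The outermost sequence is also the most duplicated. Only 49.1% of its sampled 50-mers were unique, against 71.7% from 100 to 250 kb and 93.2% from 1000 to 2000 kb, and the authors kept uniquely mappable reads. Set beside windows elsewhere of the same GC and the same class of unique 50-mers, an alternative chosen after seeing the data, the terminal xChIP H1.5 excess of 8.97 points became -1.67 points. In the 69 terminal windows with at least 90% unique 50-mers it was 6.89 points, with 20.0% covered against 13.1%, in the 43 with 50% to 90% unique it was -7.69 points, with 27.2% against 34.9%, and in the 132 with under 50% unique it was -4.19 points, with 28.2% against 32.3%. In windows elsewhere xChIP H1.5 covered 12.7%, 38.2% and 32.9% of the bases of these 3 classes. The xChIP H1.2 difference of -1.52 points became -7.80 points when matched this way. The xxChIP differences were 3.03 points with H1.2 and 3.08 points with H1.5, and fell to 1.02 and 1.62 points in the windows with at least 90% unique 50-mers, from 3.89 and 3.69 points.

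**Figure D2:**
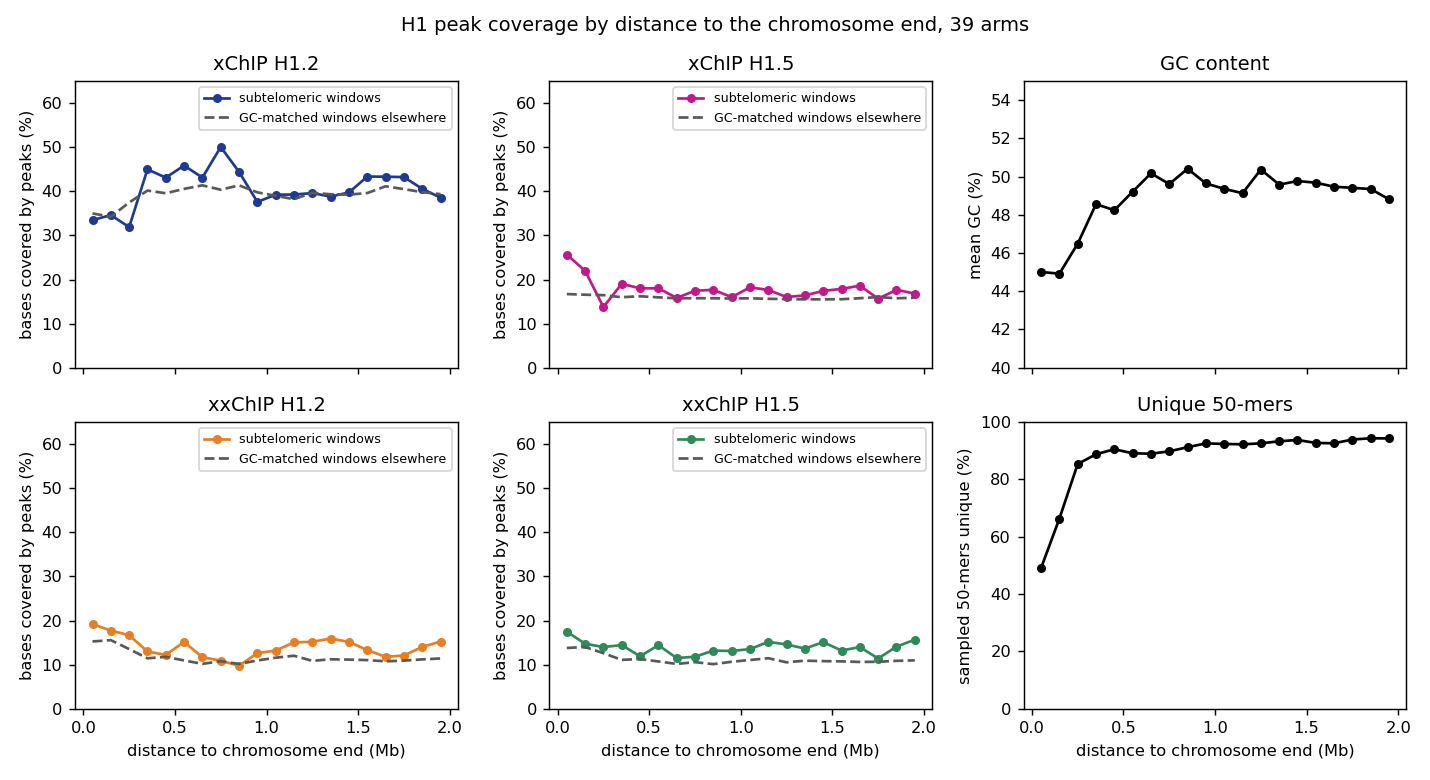
Share of bases covered by peaks (vertical axes of the 4 coloured panels, %) in steps of 100 kb from the chromosome end (horizontal axes, Mb), with the GC-matched value elsewhere as a dashed line, and the mean GC content and the share of unique 50-mers of the same windows in the right panels. xChIP H1.5 is highest in the outermost step, at 25.7%, where 49.1% of sampled 50-mers are unique.

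Single arm ends spread widely within the terminal 100 kb. xChIP H1.2 coverage ran from 6.36% at 20p over a median of 31.9% to 84.6% at 3q. xChIP H1.5 ran from 0% to 82.7% at 13q, with a median of 21.9%, and left 11q, 16p and 19p without a covered base. xxChIP H1.2 ran from 0% to 52.1% at 2q, with a median of 17.9% and 3 ends without a covered base. xxChIP H1.5 reached 42.1% at 22q, with a median of 15.6% and 1 such end. At 13q the sequence is largely unique (91.2% of 50-mers), whereas it is 2.38% at 3q, 4.625% at 19p, 11.5% at 2q and 27.03% at 22q, so the values at these 4 ends are uncertain. Each of the ends named here rests on only 4 windows, while others have 9 or 10.

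Very little telomere repeat itself could be examined. The motif TTAGGG or its reverse complement CCCTAA made up 0.582% of the bases of the terminal 100 kb, 0.205% of the rest of the subtelomeres and 0.227% elsewhere. Only 7 subtelomeric windows had at least 5% of their bases in the repeat, 4 of them within 100 kb of the end. The xChIP lists covered on average 40.1% (H1.2) and 32.5% (H1.5) of these 7 windows, and the xxChIP lists 4.25% (H1.2) and 12.7% (H1.5).

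Arms differed far more than the subtelomeric mean differed from its match. xChIP H1.2 was highest at 8q with 79.2% of bases covered, followed by 9q with 69.0% and 3q with 67.8%, and lowest at 3p with 14.9%, 11q with 17.1% and 2p with 17.2%. The 3q end is not GC-rich (43.7% GC) and lay 33.5 points above its GC match, as did 8q with 33.6 points at 55.1% GC. The 2p and 11q ends differed from theirs by -21.3 and -20.6 points. xChIP H1.5 was highest at 5q (29.7%), 1p (29.6%) and 12q (29.3%) and lowest at 16q (5.08%), 16p (7.05%) and 10p (9.60%). Here and below, the GC match of an arm came from windows of all autosomes. A level common to a whole chromosome is thus not told apart from a level of its end. Matching within the chromosome was made only for the mean over all arms together.

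Both xxChIP lists had the same 3 arms at the top and the same 3 at the bottom. At 4q xxChIP H1.2 covered 33.0% and xxChIP H1.5 32.8%, at 1q 28.1% and 32.7%, and at 6q 26.9% and 26.8%. At 16p they covered 1.38% and 0.994%, at 16q 2.51% and 2.22%, and at 8q 3.35% and 2.16%. The 8q end, at the top for xChIP H1.2, was thus among the lowest for xxChIP.

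xChIP H1.2 covered more than xChIP H1.5 in 39 of 39 arms. It covered more than xxChIP H1.2 in 33 of 39, the exceptions being 1q, 2p, 3p, 4q, 11q and 19q. For H1.5 the xChIP list covered more than the xxChIP list in 24 of 39 arms and less in 15. Measured as differences from the GC match, xChIP H1.2 went against xxChIP, with a Pearson r over 39 arms of -0.46 between the H1.2 lists and of -0.53 when xChIP H1.2 was set against xxChIP H1.5. xChIP H1.5 did not, with an r of -0.06 against the H1.2 list of xxChIP and -0.09 against its H1.5 list. Within a protocol r was 0.74 for xChIP and 0.86 for xxChIP. Without matching, GC content and coverage had an r of 0.68 with H1.2 and 0.08 with H1.5 in xChIP, and of -0.82 and -0.75 in xxChIP. These are descriptions: arms of a chromosome share their cells and libraries, and all arms share the peak calling.

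A group of 9 arms (2p, 4q, 8p, 9p, 10p, 10q, 11q, 18q and 19q) lay below the GC match in both xChIP lists and above it in both xxChIP lists. The reverse held in 5 arms, 3q, 5q, 8q, 11p and 12p. In 7 arms (1q, 5p, 6q, 7q, 15q, 20p and 22q) xChIP H1.2 alone was below and the other 3 lists were above, and in 5 (16p, 17p, 17q, 18p and 21q) xChIP H1.2 alone was above, so that xChIP H1.5 went with xxChIP there. 6 arms (1p, 4p, 9q, 12q, 14q and 20q) were above in all 4 lists, and 16q was below in all 4. On long arms the excess was larger than on short arms for 3 of the lists, with 2.83 against 0.418 points in the xChIP H1.5 list, 3.21 against 1.201 points in xxChIP with H1.2 and 3.81 against 1.17 points with H1.5.

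**Figure D3:**
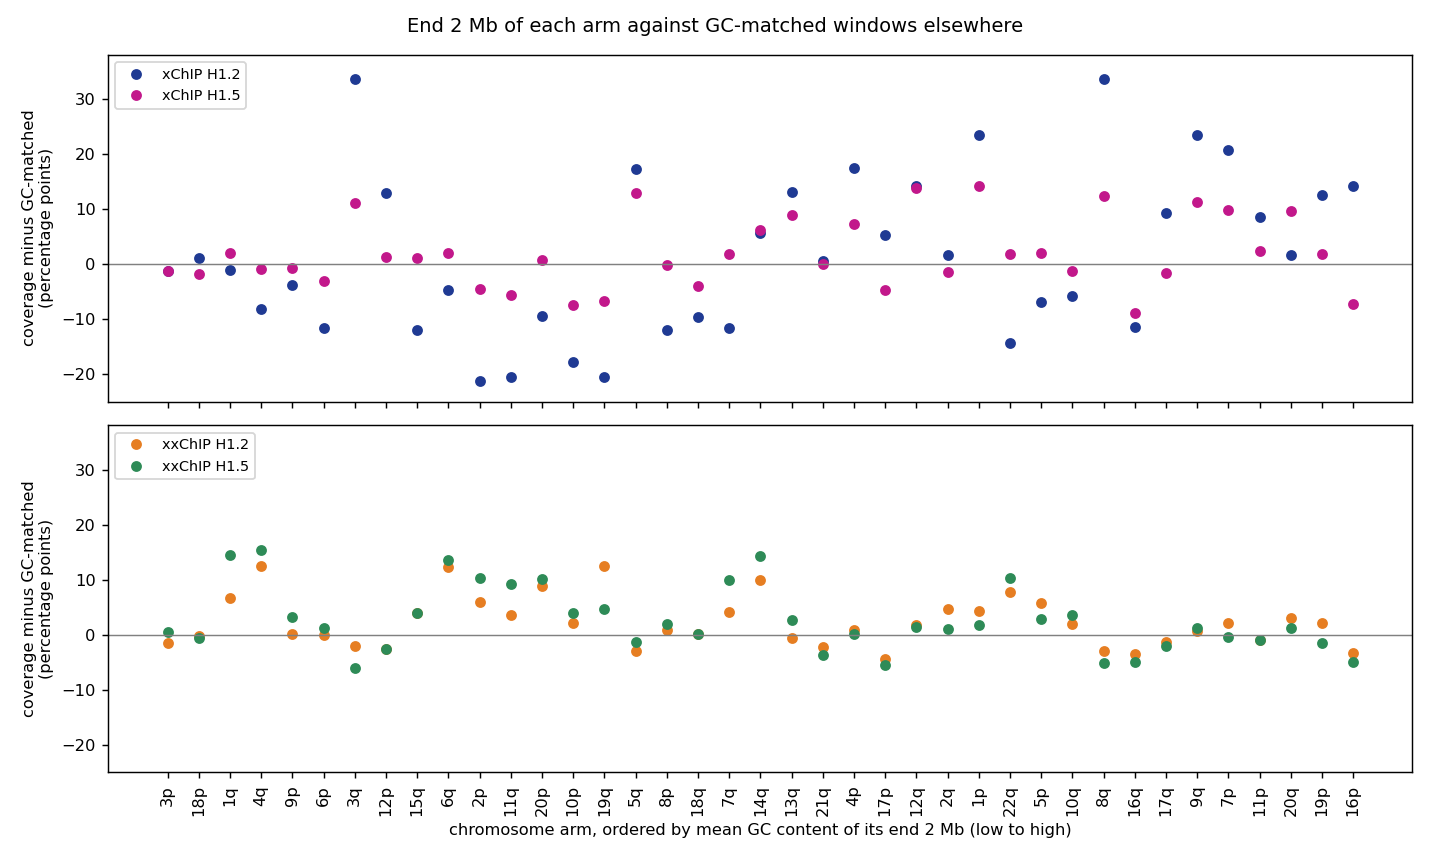
Coverage of the end 2 Mb of each of 39 arms minus that of GC-matched windows elsewhere (vertical axis, percentage points), with arms ordered by GC content from low to high, for the xChIP lists (upper panel) and the xxChIP lists (lower panel); the line marks 0. xChIP H1.2 spans from -21.3 points at 2p to 33.6 points at 8q.

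Windows were also sorted by the lists that covered at least 50% of them. xChIP H1.2 covered 2783 subtelomeric windows to that extent, 37.02% beside 21.5% of all autosomal windows. xChIP H1.5 did so in 776 (10.3% beside 9.53%), xxChIP H1.2 in 638 (8.49% beside 13.7%) and xxChIP H1.5 in 596 (7.93% beside 10.5%). Windows held by an xChIP list and no xxChIP list made up 37.2% of the subtelomeres, 22.1% of the windows elsewhere and 35.7% of GC-matched windows. Windows held by xxChIP alone made up 10.3%, against 16.7% elsewhere and 7.72% in matched windows, and both protocols met in 2.42%, against 2.49% and 1.69%. Both xxChIP lists together, without xChIP, held 3.13% of subtelomeric windows, 4.59% of windows elsewhere and 1.69% of matched windows.

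Counted in bases, 65.9% of the subtelomeric xChIP H1.5 peaks lay inside xChIP H1.2 peaks, against 54.8% elsewhere, while 28.4% of the xChIP H1.2 bases lay inside xChIP H1.5 peaks, against 34.2% elsewhere. xChIP H1.2 peaks cover 40.9% of all subtelomeric bases and 26.6% elsewhere, so shares inside them are higher in the subtelomeres from the outset. The xxChIP lists shared 47.4% of the H1.2 bases, against 43.98% elsewhere, and 47.8% of the H1.5 bases, against 51.75% elsewhere. Of the xxChIP H1.2 bases 31.6% lay in xChIP H1.2 peaks, below the 40.9% of all bases, against 22.02% elsewhere. The reverse share, of xChIP H1.2 bases in xxChIP H1.2 peaks, was 10.8% against 17.1% elsewhere.

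Subtelomeric xChIP H1.2 peaks were long. Their median was 2819 bp against 2327 bp elsewhere, and peaks of at least 20 kb made up 44.3% of their bases against 36.5%. For the other lists the medians were lower than elsewhere, 2070 against 2104 bp for xChIP H1.5, 1972 against 2174 bp in xxChIP with H1.2 and 1904 against 2036 bp with H1.5. Their bases in peaks of at least 20 kb made up 11.5% against 10.3%, 13.1% against 17.95% and 10.4% against 10.6%, in the same order. The merging of replicates can lengthen peaks, and its part in these lengths was not tested.

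The longest xChIP H1.2 peak spanned 270899 bp at 1p, chr1:1574351-1845249, over CDK11B and CDK11A, a duplicated pair of cyclin-dependent kinase genes, SLC35E2B, NADK and GNB1, which encodes a G protein beta subunit. xxChIP H1.2 and xxChIP H1.5 covered 3.26% and 3.82% of it. The longest xChIP H1.5 peak, 60488 bp at chr3:196137059-196197546, overlapped UBXN7 and RNF168, a ubiquitin ligase gene of the DNA damage response, and lay wholly inside xChIP H1.2 peaks. The longest xxChIP peaks lay together at 4q and overlapped no protein-coding gene, 82177 bp at chr4:190541129-190623305 for xxChIP H1.2 and 173580 bp at chr4:190523079-190696658 for xxChIP H1.5. xChIP H1.2 covered 7.76% of the latter.

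Promoters, taken as 1000 bp on both sides of the gene start, followed the windows. xChIP H1.2 peaks overlapped 764 of 1244 subtelomeric promoters, 61.4% (95% Wilson interval 58.7% to 64.1%) beside 49.3% of all autosomal protein-coding promoters. xChIP H1.5 overlapped 276, which is 22.2% and near the 22.1% of all promoters. xxChIP H1.2 overlapped 69 (5.55% beside 8.89%) and xxChIP H1.5 overlapped 57 (4.58% beside 8.06%). Promoters met by an xChIP list alone were 61.8% of the subtelomeric ones and 48.7% of those elsewhere, and 29.9% met no list, against 37.2%. The interval covers counting error only and takes promoters as independent. Neighbouring promoters can lie in the same peak, so it can be too narrow. GC content was not matched for promoters.

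Gene bodies were covered to at least 50% by xChIP H1.2 in 551 of the 1244 genes, 44.3% beside 32.1% of all autosomal protein-coding genes. For xChIP H1.5 it was 63 genes (5.06% beside 5.01%), for xxChIP H1.2 12 genes (0.965% beside 2.26%) and for xxChIP H1.5 20 genes (1.61% beside 1.85%). The median subtelomeric gene had 41.9% of its length in xChIP H1.2 peaks, 7.98% in those of xChIP H1.5 and 0% in either xxChIP list. xChIP H1.2 covered 135 of 1005 genes of at least 5 kb completely (13.4%, beside 8.58% of all autosomal genes of that length), and the longest of these were GNB1, GAK (a kinase of clathrin uncoating), ENSG00000272741, TOP1MT (the mitochondrial DNA topoisomerase) and TRAF2 (an adaptor of TNF receptors).

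The genes of at least 5 kb most covered by xChIP H1.5 were CHAMP1 at 13q, a chromosome alignment gene, RPL35A at 3q, which encodes a ribosomal protein, and LCN12 at 9q, a lipocalin gene, each at 100%, followed by DYNLT2B (98.3%) and SENP5 (76.9%), a SUMO protease gene, both at 3q. CHAMP1 starts 89.9 kb from the chromosome end, and 73.1% of it lay in xChIP H1.2 peaks. RPL35A and LCN12 lay wholly in xChIP H1.2 peaks as well.

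Olfactory receptor genes led the xxChIP lists. OR1C1 (100%) and OR14A16 (66.7%) at 1q were the most covered genes of at least 5 kb for xxChIP H1.2, followed by ZNF749 (64.5%) and SMIM17 (61.1%) at 19q and by NKD2 (58.9%) at 5p, a gene of Wnt signalling. For xxChIP H1.5 they were OR2AJ1 (100%), OR2T33 (77.9%) and OR2M3 (73.5%) at 1q, OR2V1 (69.4%) at 5q and SIRPB2 (69.1%) at 20p. OR1C1, OR2AJ1 and OR14A16 had 0% of their length in xChIP H1.2 peaks, whereas OR2V1 had 95.6%.

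Of the 57 subtelomeric olfactory receptor genes 45 lie in the cluster at 1q, so they are neighbours and not independent. Their median coverage was 8.89% for xxChIP H1.5 and 0% for the other lists. xxChIP H1.5 covered 9 of 57 to at least 50% (15.8%, beside 1.85% of all autosomal genes) and xxChIP H1.2 covered 5 (8.77% beside 2.26%). xChIP H1.2 did so in 7 (12.3% beside 32.1%) and xChIP H1.5 in 2 (3.51% beside 5.01%). Their promoters were overlapped by xxChIP H1.5 peaks in 23 genes (40.4% beside 8.06% of all autosomal promoters), by xxChIP H1.2 in 17 (29.8% beside 8.89%), by xChIP H1.5 in 15 (26.3%, near the 22.1% of all) and by xChIP H1.2 in 6 (10.5% beside 49.3%). At 1q, 14 of 45 had some xChIP H1.2 coverage (31.1%, beside 83.95% of all autosomal genes), and 28 had some xxChIP H1.5 coverage (62.2%, near the 58.6% of all autosomal and above the 37.4% of all subtelomeric genes). OR11L1 had 100% of its length in xChIP H1.2 peaks and 0% in both xxChIP lists, and OR2G2 had 100% in xChIP H1.2 and 35.01% in xxChIP H1.5 peaks. In the 1q arm as a whole the xxChIP peaks covered 28.1% of bases with H1.2 and 32.7% with H1.5. The median 1q receptor gene lay below its arm, with 4.435% and 15.55% of its length covered, in this order. The shares set beside all autosomal genes were not matched on arm. Some receptor models are short, such as OR2T4 with 1047 bp, and gene length was not matched either. The receptor genes resemble each other in sequence, and reads may be lost from the most similar ones.

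A list of 5 genes of the serine protease family at 19p lay mostly in xChIP H1.2 peaks. AZU1, PRTN3 and ELANE encode azurocidin, proteinase 3 and neutrophil elastase and stand in a row at 19p with CFD, the complement factor D gene, while GZMM, a granzyme gene of lymphocytes, lies closer to the end. AZU1, PRTN3, ELANE and GZMM lay wholly in xChIP H1.2 peaks and CFD to 89.4%, in an arm covered to 56.3% and beside 44.3% of subtelomeric genes with at least 50% covered. xChIP H1.5 covered 7.22% of AZU1, 8.47% of CFD and 0% of the other 3 genes. Neither xxChIP list covered any base of these 5 genes, which is common in the subtelomeres, where the H1.2 list of xxChIP left 60.5% of genes without coverage and its H1.5 list 62.6%. Expression was not measured here.

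Housekeeping genes, of which 12 of the 14 listed lie in the windows, were covered to at least 50% by xChIP H1.2 in 7 of 12, beside 32.1% of all autosomal and 44.3% of all subtelomeric genes, with a median of 61.7%. xxChIP H1.5 covered 0% of all 12, as it did of 62.6% of subtelomeric genes. xxChIP H1.2 covered 25.2% of TBP, the TATA-binding protein gene, 12.3% of SDHA and 9.07% of ACTG1. The ribosomal protein gene RPLP2 and the RNA polymerase subunit genes POLR2L and POLR2E lay wholly in xChIP H1.2 peaks, while PSMB1, a proteasome subunit gene, had 10.6% and FASN, the fatty acid synthase gene, 11.03%. xChIP H1.2 peaks overlapped 11 of the 12 promoters (91.7%, beside 49.3% of all autosomal and 61.4% of all subtelomeric ones), that of FASN over only 0.6997% of its bases.

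Immune and interferon genes were split. ISG15, IRF7, TNFRSF4, TNFRSF18 and TNFRSF6B, 5 of 12, lay wholly in xChIP H1.2 peaks and were the only ones covered to at least 50% (41.7%, near the 44.3% of all subtelomeric genes), and PDCD1, IFITM1 and IFITM5 had 0%. IRF4, a lymphoid transcription factor gene at 6p, was the only 1 of the 12 with part of its length in xxChIP peaks, 7.43% for H1.2 and 26.1% for H1.5, while 60.5% and 62.6% of all subtelomeric genes had none. The promoter of IFITM2 lay to 33.6% in xxChIP H1.2 peaks. The interferon-induced genes IFITM1, IFITM2 and IFITM3 are similar neighbours at 11p, with 0%, 23.6% and 45.6% in xChIP H1.2 peaks.

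At 16p the alpha globin locus changed along its length. MPG, a DNA repair glycosylase gene, lay to 100% in xChIP H1.2 peaks, NPRL3, whose introns hold the globin enhancers, to 47.1%, and the embryonic globin gene HBZ to 80.0%. HBA2 had 25.2% and HBA1 and HBQ1 had 0%. HBA1 and HBA2 are nearly identical copies, so their values are uncertain. xxChIP peaks touched MPG (21.7% for H1.2 and 18.3% for H1.5) and, for H1.2, NPRL3 (5.10%).

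Of the telomere maintenance genes, TERT at 5p, the catalytic subunit gene of telomerase, had 41.3% of its length and 100% of its promoter in xChIP H1.2 peaks, and RTEL1 at 20q, a helicase gene, had 68.8% and 15.2%. xxChIP H1.5 covered 10.9% of TERT and 7.68% of RTEL1, and xxChIP H1.2 covered 0% of the length of both and 13.1% of the RTEL1 promoter.

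Neuronal genes, 12 of the 13 listed, had xChIP medians of 24.2% with H1.2 and 11.6% with H1.5, beside 27.65% and 10.65% of all autosomal and 41.9% and 7.98% of all subtelomeric genes. Their xxChIP medians were 15.3% and 14.1%, beside 6.09% and 4.52% of all autosomal genes and 0% of the subtelomeric ones. These medians are near the 13.9% and 13.8% of all subtelomeric bases that the xxChIP lists covered. Some neuronal genes are very long, such as PTPRN2 with 1048766 bp, and gene length was not matched. CNTN6, a contactin gene at 3p, had 6.37% in xChIP H1.2, 24.65% in xxChIP H1.2 and 27.1% in xxChIP H1.5 peaks, and CHL1 beside it had 13.6%, 22.97% and 8.98%. GRIN3B, a glutamate receptor subunit gene at 19p, had the highest xChIP H1.2 value, 66.6%, and 0% in both xxChIP lists.

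The 78 zinc finger gene models varied with their arm. At 8q the median of 9 genes was 95.04% for xChIP H1.2 and 0% for xxChIP H1.2, in an arm covered to 79.2% and 3.35%. At 19q the median of 44 genes was 11.5% and 12.3%, in an arm covered to 19.8% and 24.9%. The genes could thus depart from the arm as a whole, also in arms with few of them. At 10q ZNF511 and a readthrough model that overlaps it, ZNF511-PRAP1, had 100% and 88.35% in xChIP H1.2 peaks in an arm covered to 38.5%. At 1q the xxChIP H1.2 median of 5 genes was 0% in an arm covered to 28.1%. ZNF16 at 8q and ZNF605 at 12q lay wholly in xChIP H1.2 peaks, and ZNF548 at 19q had 10.6% there, 56.0% in xxChIP H1.2 and 46.7% in xxChIP H1.5 peaks.

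The 6 beta-defensin genes at 20p, which encode antimicrobial peptides, had 0% of their length in xChIP H1.2 peaks, beside 15.9% of all subtelomeric genes at 0%. DEFB127 lay wholly in both xxChIP lists, DEFB125 had 32.3% in xxChIP H1.5 peaks, and DEFB126, DEFB128 and DEFB132 were at 0% in all 4 lists, as were 9.24% of subtelomeric genes. The 7 forkhead transcription factor genes had an xChIP H1.2 median of 1.44%, beside 41.9% for all subtelomeric genes, and 3 were at 0% (42.9%, beside 15.9%). Among the 7 FOXK2 had the highest xChIP H1.2 value, 75.9%, and 0.831% in xxChIP H1.2 peaks. The other 6 had no xxChIP coverage, like most subtelomeric genes. FOXL3 had 68.8% in xChIP H1.5 and 0% in xChIP H1.2 peaks.

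**Figure D4:**
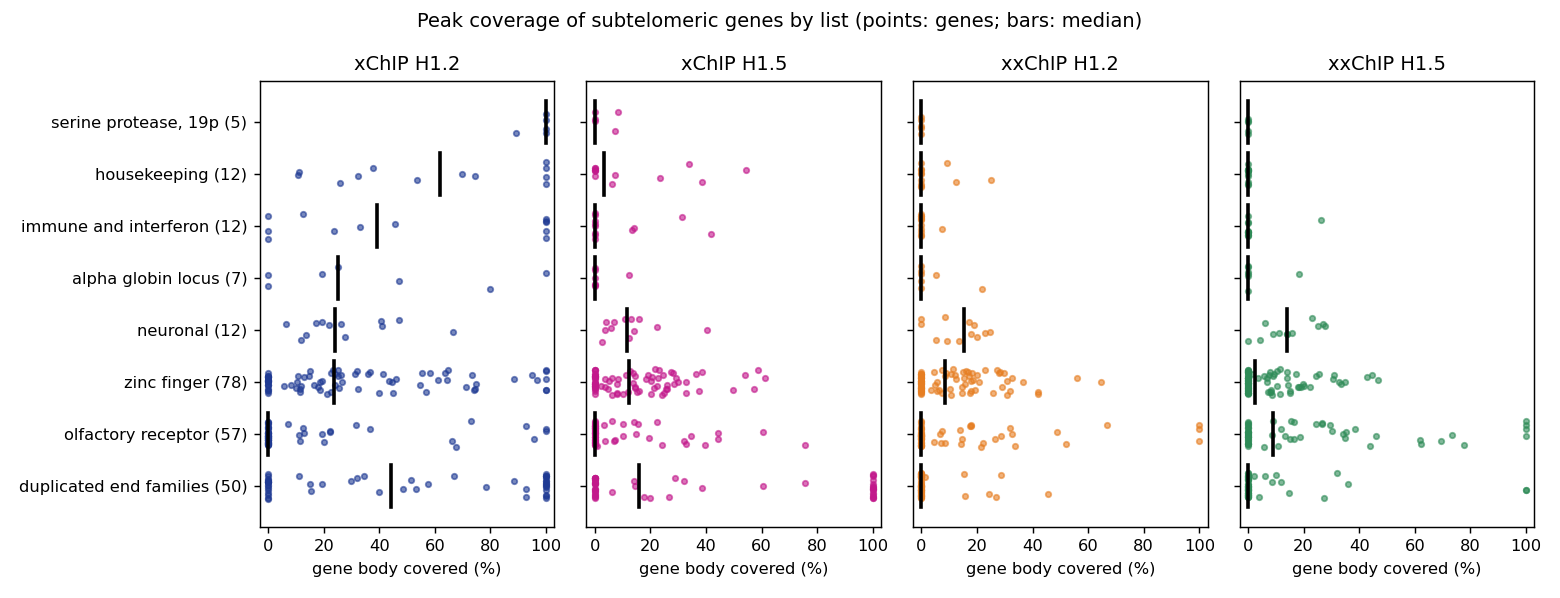
Share of the length of each gene covered by peaks (horizontal axis, %) for 8 groups of subtelomeric genes (vertical axis, number of genes in brackets) and the 4 lists; points are genes, spread vertically for display, and bars are medians. The 5 serine protease family genes of 19p sit at 89.4% or more for xChIP H1.2.

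Families that several chromosome ends share gave 50 gene models, with medians of 44.4% with H1.2 and 15.98% with H1.5 in xChIP and 0% for both xxChIP lists. These xChIP medians rest on the 17 DUX4 gene models, since the median of the other 33 models was 0% in all 4 lists. The copies are similar in sequence, and how reads were placed among them is not known from the lists, so all values of these families are uncertain. The DUX4 copies stood apart from the rest. In the tandem array at 4q, chr4:190989090-191013434, the 8 pseudogenes DUX4L1 to DUX4L8 follow each other at a median spacing of 3294 bp, with the DUX4 gene annotated over DUX4L1, and both xChIP lists covered 100% of its 24.3 kb, while both xxChIP lists covered 0%. A single peak of 31449 bp (xChIP H1.2) and one of 34325 bp (xChIP H1.5) hold it.

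The array at 10q, chr10:135477933-135498450, has 7 gene models at a spacing of 3300 bp. xChIP H1.2 covered 92.0% of it and xChIP H1.5 96.6%, and both xxChIP lists again covered 0%. The GC content of the arrays is 72.6% at both ends, with 97.8 and 97.6 CpG per 1000 bp, several times that of the subtelomeres as a whole. Only 1.03% and 0.976% of their sampled 50-mers are unique in hg19. The authors kept only reads with a unique position, and the read length, on which uniqueness depends, was not used here. How reads were placed in the arrays is therefore not known from the lists, so that the values near 100% and those of 0% are both uncertain, and whether the pattern belongs to 4q, to 10q or to both cannot be told apart.

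Inward of the arrays both arms held windows rich in xxChIP H1.2 peaks. Coverage was 100% in the window at 225 kb from the 4q end and 81.9% at 85 kb from the 10q end. At 4q the longest xxChIP peaks lie farther inward, from 458 kb off the chromosome end for xxChIP H1.5, in sequence of 42% GC. FRG1, between them and the array, had 0% of its length in xChIP peaks of H1.2 and 26.7% in those of H1.5, and 24.2% and 32.2% in the xxChIP peaks of H1.2 and H1.5. At 10q FRG2B, beside the array, lay wholly in xxChIP H1.5 peaks and to 51.5% in xChIP H1.2 peaks, whereas its 4q counterpart FRG2 had 29.9% in xChIP H1.2 and 0% in both xxChIP lists. FRG2 and FRG2B belong to the shared families, and 17.5% of sampled 50-mers in the terminal 100 kb of 10q were unique. This contrast between the arms is therefore uncertain.

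**Figure D5:**
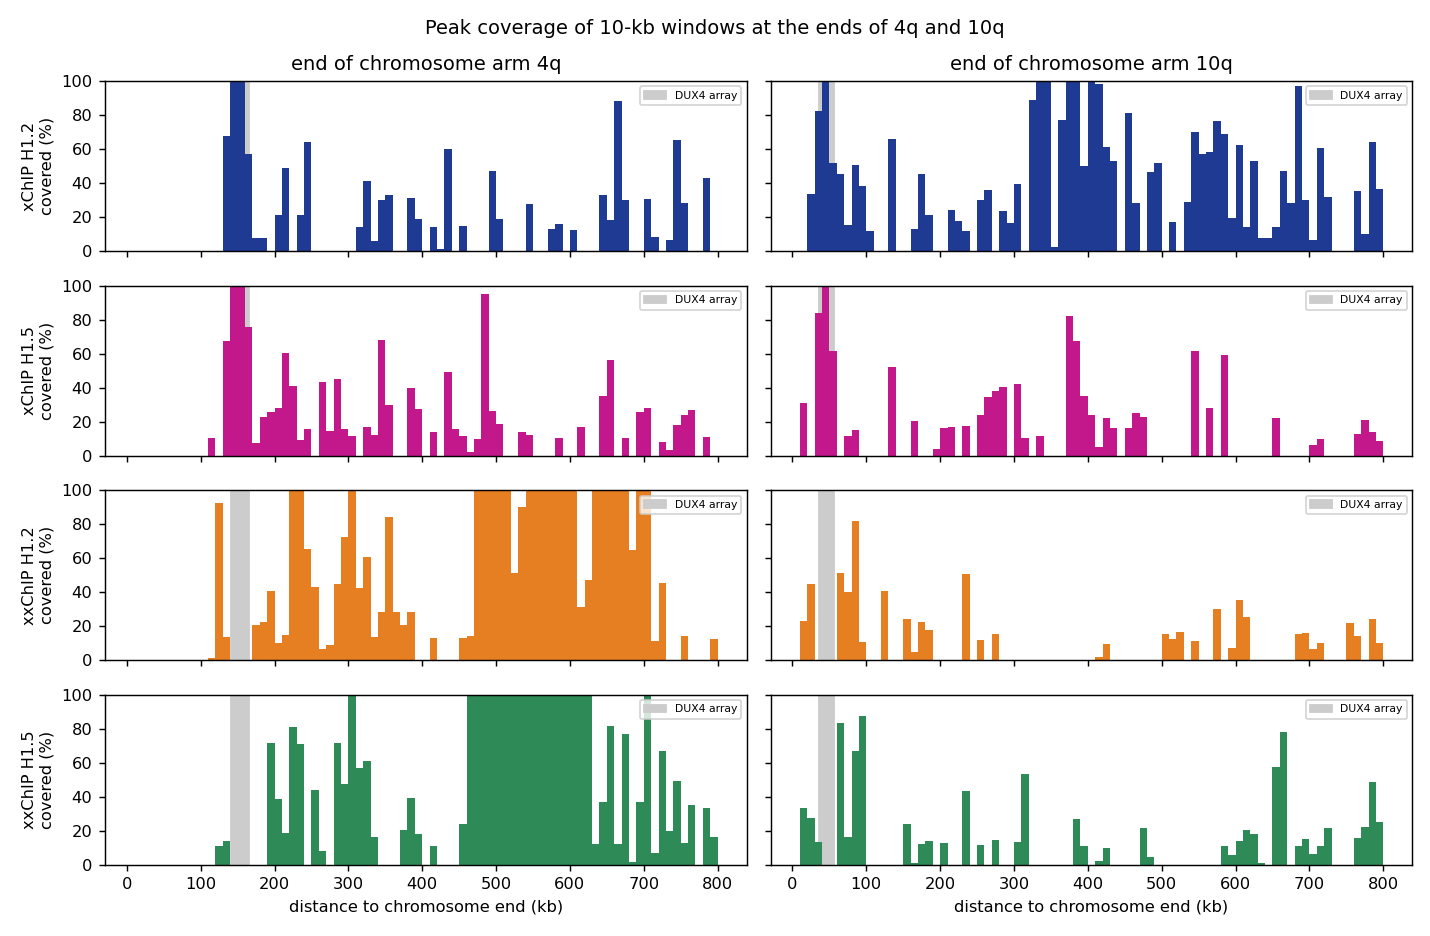
Share of each 10-kb window covered by peaks (vertical axes, %) against the distance to the chromosome end (horizontal axes, kb) at 4q (left) and 10q (right) for the 4 lists, with the DUX4 array shaded in grey; windows with under 50% known sequence are left blank. Both xChIP lists fill the array at 4q, where both xxChIP lists are at 0%.

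The other shared families were less uniform. The WASH copies had up to 78.6% in xChIP H1.2 peaks (WASH4P at 16p) and at most 15.5% in xxChIP peaks (WASHC1 at 9p). TUBB8 at 10p, a beta tubulin gene, had 53.1% in xChIP H1.2 and 45.7% in xxChIP H1.2 peaks, and TUBB8P11 at 1p lay wholly in xxChIP H1.5 peaks. Of the OR4F copies OR4F5 at 1p had 75.5% in xChIP H1.5 peaks, OR4F6 at 15q had 92.6% in xChIP H1.2 peaks, and OR4F16, OR4F21 and OR4F4 were at 0% in all 4 lists.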

How the data were processed

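The H1 peaks of both protocols were used as deposited. The authors aligned reads to hg19 with Bowtie2, allowing up to 2 mismatches, kept only reads with a unique position, ran MUSIC to find enriched regions, and merged the 3 replicates of each combination. The deposited lists give the start and end of each peak in bp, with no score, so that coverage, the share of known bases under deposited peaks, is the measure used throughout. Samples were grouped by protocol and antibody, and the 6 Input samples were not used. Depth is unknown.

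Windows of 10 kb with at least 50% known bases were matched on GC in strata of 1 percentage point (a stratum with fewer than 20 windows elsewhere takes the nearest that has 20, which affected 143 windows). Distance was taken from the window centre to the chromosome end. Unique 50-mers were sampled every 50 bp of GRCh37, the sequence of hg19; the read length was not used. GENCODE v44, in its GRCh37 version, gave the genes, and gene starts within the windows made up the gene set. Overlap counted from 1 bp. No test was made. The GC matching was run on simulated data in which coverage depended only on GC, a built-in difference and independent noise. The built-in differences came back within 0.213 percentage points. This checks the calculation and not how well real windows are matched.

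Named genes were the 5 most covered of at least 5000 bp per list, fixed gene lists, and the arms, longest peaks and sequences given by rank (the xChIP H1.5 peak sequence and the arm ends are not reported here); the members and lists were chosen with earlier results of these data known. The D4Z4 detail, the olfactory receptor and zinc finger genes by arm, and the matching on unique 50-mers were chosen after seeing the data. Alternatives changed window size, known share, strata, matching, span, peak length, measure, uniqueness and chromosomes. Python 3.11.15, numpy 2.4.6, numba 0.67.0, statsmodels 0.14.6 and matplotlib 3.10.9 were used.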

Additional observations from a re-analysis of the deposited data

Results flagged for a closer look

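For both variants the subtelomeres lay above the rest of the autosomes in the xChIP list and below it in the xxChIP list, before matching on GC. The difference from elsewhere was 14.3 percentage points for xChIP H1.2 and -6.77 points for xxChIP H1.2, a gap of 21.03 points between the protocols. For H1.5 it was 1.02 points in xChIP and -3.78 points in xxChIP, a gap of 4.80 points. With 1 merged list per protocol neither gap was tested. After matching on GC all 4 lists lay above the matched value.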

How the results depend on the processing

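No paired analysis was possible because the replicates are merged in the lists and the columns carry no replicate number; for the same reason no replicate was left out. Neighbouring windows are not independent, so directions and values are given without an interval.

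For the subtelomeric excess over GC-matched windows xxChIP H1.2 and xxChIP H1.5 stayed above 0 in 14 of 14 alternatives each, xChIP H1.5 in 13 and xChIP H1.2 in 12. Windows of 50 kb turned xChIP H1.2 to -1.17 points. A span of 5 Mb per arm turned xChIP H1.2 to -1.04 and xChIP H1.5 to -0.0760 points. Windows holding a peak centre gave 0.890 points for xChIP H1.2 and 4.35 points for xChIP H1.5. Matching on GC and unique 50-mers, chosen after seeing the data, gave 0.187 points for xChIP H1.2 and 0.749 points with H1.5. The cause was not tested.

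For the terminal 100 kb, matching on GC and unique 50-mers moved xChIP H1.2 from -1.52 to -7.80 points and turned xChIP H1.5 from 8.97 to -1.67 points; leaving out chromosomes was also chosen after seeing the data. Without chromosome 17 xChIP H1.2 was 0.188 points. It was -0.825 without chromosome 2, -2.80 without 4, -0.601 without 7, -2.39 without 10, -2.58 without 18 and -0.635 without 19, so its sign is not stable. Both xxChIP lists stayed above 0 in 6 of 6 alternatives and xChIP H1.5 in 5, but with at least 90% unique 50-mers xxChIP H1.2 fell from 3.89 to 1.02 points and xxChIP H1.5 from 3.69 to 1.62 points, and xChIP H1.2 was -0.0192 points. With the distance taken from the outermost known base xChIP H1.2 was -0.0709 points.

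The promoter share depends on its definition by construction. With at least 50% of the promoter covered the share for the H1.2 and H1.5 lists was 48.9% and 11.5% in xChIP and 2.33% and 2.49% in xxChIP. With 2500 bp on both sides these were 74.4%, 35.9%, 13.6% and 11.7%. Depth, which is unknown, limits what a share of 0% means, and the merged lists do not show how many replicates support a peak.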
